A study of Rattus norvegicus with 75 samples.

Results

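The genes described here are 31 of the 32754 genes in the table: enzymes that build cholesterol and long-chain fatty acids, and the factors that sense sterols and adjust those enzymes. They were chosen by gene name, with earlier results of these data known. Counts of members set beside shares of all genes are therefore not independent of these data. Of the 31, 7 catalyse the mevalonate steps, 11 the steps from squalene and lanosterol to cholesterol, 6 sense or carry sterols or act as SREBP factors, and 7 make fatty acids or supply them with precursors. All 31 have a row in the table. Each library held poly-A RNA of kidney tubules that were microdissected from rats (Sprague-Dawley, male, 120 to 160 g, kept singly under 12 h of light and 12 h of dark). The treated rats ate food with 40 mM lithium chloride per kg, and the control rats the same food without it. Cortical collecting duct (CCD) tubules, whose principal cells reabsorb water and whose intercalated cells handle acid and base, were sampled after 12 h on the diet with 3 control and 2 lithium libraries, after 24 h with 3 of each, after 36 h with 3 of each and after 72 h with 17 and 19. Tubules of the cortical thick ascending limb (cTAL), a salt-reabsorbing segment upstream, were sampled at 72 h only (12 control, 10 lithium). The study asked which signals start the loss of urine concentration that lithium causes, nephrogenic diabetes insipidus. No label ties a library to a rat. The p-values below therefore rest on how much libraries vary among themselves, and part of that variation can be technical.

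Cholesterol synthesis starts from acetyl-CoA, passes through mevalonate and farnesyl diphosphate, closes into lanosterol and ends after a series of demethylations and reductions. The SREBP transcription factors switch on most of these genes: when sterols are scarce, SCAP escorts SREBP from the endoplasmic reticulum to be cleaved, and when sterols are plentiful INSIG proteins hold SCAP back. INSIG1 is itself an SREBP target, so its transcript usually follows that of the synthesis enzymes. SREBP-1c, from Srebf1, acts mainly on fatty acid genes, and SREBP-2, from Srebf2, mainly on sterol genes.

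SREBP factors act on promoters together with NF-Y, a factor that binds the letters CCAAT, so the bases upstream of each start site are shown for genes that fell and genes that rose. Promoters came from RefSeq on the GRCr8 build, which is later than the Rnor_6.0 build the study used, and 24 of the 31 genes had an entry. In the 250 bases before the start, CCAAT (searched on both strands, so also as ATTGG) was found in 18 of the 24, 75% of them, against 34.3% of 27457 promoters of the same length. Among the genes called lower with lithium at 12, 24 or 36 h and never higher at those times, all 7 with an entry held it, and Fdft1 had no entry. Acat2 and Me1, called higher only, and Cyp51, called in both directions, held none, and Fasn had no entry. Of the genes not called at those times, 11 of 13 held it. Among these genes, Srebf1 and Ebp, called higher at 72 h, held it, and Dhcr7, also called higher at 72 h, did not. The sterol regulatory letters TCACNCCAC were in 0 of 24 (0.976% of all promoters), their shorter core CACNCCAC, which the longer motif contains, in 3 (Insig1, Acat2 and Ebp, 4.84%), and the E-box CACGTG, a palindrome, in 3 (Insig1, Sc5d and Scap, 5.79%). A match is a string of letters, not a shown binding site. Here are 3 promoters of genes that fell, Insig1 (chr4:8057770-8058019 on the minus strand), Hmgcs1 (chr2:53382054-53382303 on the plus strand) and Tm7sf2 (chr1:212789542-212789791 on the minus strand). They are followed by 3 of genes called higher at 24 and 36 h, Cyp51 (chr4:30991443-30991692 on the plus strand), Acat2 (chr1:50100590-50100839 on the plus strand) and Me1 (chr8:96540245-96540494 on the minus strand). These 3 do not stand for all genes that rose, as Srebf1 and Ebp show. Each runs 5′ to 3′ along the gene up to its start, and capitals mark CCAAT or ATTGG.
Insig1: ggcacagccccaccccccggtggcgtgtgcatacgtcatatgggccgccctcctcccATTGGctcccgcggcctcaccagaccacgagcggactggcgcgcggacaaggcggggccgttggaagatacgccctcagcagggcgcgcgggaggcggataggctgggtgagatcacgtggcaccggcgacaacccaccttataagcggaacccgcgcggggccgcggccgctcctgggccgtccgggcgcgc
Hmgcs1: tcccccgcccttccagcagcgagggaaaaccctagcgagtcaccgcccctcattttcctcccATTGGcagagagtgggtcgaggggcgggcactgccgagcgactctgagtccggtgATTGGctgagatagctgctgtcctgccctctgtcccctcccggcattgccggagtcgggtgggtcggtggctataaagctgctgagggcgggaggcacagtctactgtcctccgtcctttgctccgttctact
Tm7sf2: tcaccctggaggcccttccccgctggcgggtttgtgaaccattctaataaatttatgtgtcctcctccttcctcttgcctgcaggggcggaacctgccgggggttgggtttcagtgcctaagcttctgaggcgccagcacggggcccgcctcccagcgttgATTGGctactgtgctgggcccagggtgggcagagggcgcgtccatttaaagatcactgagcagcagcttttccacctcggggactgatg
Cyp51: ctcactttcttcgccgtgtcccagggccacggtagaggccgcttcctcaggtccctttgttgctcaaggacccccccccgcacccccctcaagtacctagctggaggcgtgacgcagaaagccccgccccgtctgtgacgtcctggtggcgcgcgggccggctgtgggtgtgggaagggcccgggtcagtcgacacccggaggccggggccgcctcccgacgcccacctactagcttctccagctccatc
Acat2: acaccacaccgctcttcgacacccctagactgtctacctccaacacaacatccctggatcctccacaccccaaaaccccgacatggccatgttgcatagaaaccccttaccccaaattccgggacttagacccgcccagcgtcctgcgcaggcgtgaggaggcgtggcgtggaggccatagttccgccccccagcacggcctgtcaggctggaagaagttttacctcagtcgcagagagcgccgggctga
Me1: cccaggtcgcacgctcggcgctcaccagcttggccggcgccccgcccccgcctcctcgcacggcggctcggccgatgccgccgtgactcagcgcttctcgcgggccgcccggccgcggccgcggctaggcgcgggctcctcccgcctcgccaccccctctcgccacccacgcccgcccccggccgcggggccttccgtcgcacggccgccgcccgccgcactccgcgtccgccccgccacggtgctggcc

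The libraries of a group were not all independent in appearance. Between 10888 and 12411 genes reached 1 TPM per library, where TPM is a transcript level scaled for gene length and for the library total. Read depth is unknown, because TPM does not keep it. In 4 genes with 2 clearly separate levels (Pfdn6, Mrps10, H3f3c and Slc39a1, picked after the data were seen), the libraries fell into sets that shared a pattern. Genes were kept only if each of the 6 early CCD groups (12, 24 and 36 h) showed 1 level. Each 72 h group had to show both. That each early group was 1 set, and each 72 h group more than 1, was therefore fixed by this rule and not observed. At 72 h there were 4 control and 4 lithium sets, the same patterns recurring in CCD and cTAL, with consecutive replicate numbers. The labels name no such sets. With each early group taken as 1 set, an effect of lithium or of time at 12, 24 and 36 h cannot be told apart from a difference between sets. The main counts over libraries are therefore given with the count on set means, where the early groups count as 1 value each and borrow their spread from the 72 h sets. CCD libraries carried their markers (principal cell genes summed to 9079 TPM or more in every CCD library and to 173 TPM or less in every cTAL library), and cTAL libraries theirs (thick ascending limb genes 52070 TPM or more, at most 970.7 TPM in CCD).

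Of the 31 genes, 29 reached 1 TPM often enough to be tested. Scd, a fatty acid desaturase, was listed at 0 to 0.32 TPM in all libraries, and Elovl6, a fatty acid elongase, at 0.00 in all. The paralog Scd2, which shares much of its sequence with Scd, ranged from 1.64 to 112.6 TPM in CCD libraries at 72 h and is described with the related genes. Acaca, acetyl-CoA carboxylase, averaged 1.12 to 2.93 TPM over the groups, and Hsd17b7, a keto-reductase of the late sterol steps, 0.735 to 6.48 TPM, so both carry little signal. Fdps, which makes farnesyl diphosphate, was the most abundant member in every group, with means of 105.4 to 209.9 TPM.

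In control CCD, before any effect of lithium is considered, 20 of the 29 genes were higher at 12 h than at 72 h and 8 were higher at 36 h than at 72 h. An F test over the 4 control times, in limma on log2(TPM + 1), called 20 of the 29 (15.4% of all genes tested were called). Between 72 h and 12 h, 0 were higher at 72 h, where 2.93% of all genes were called lower and 3% higher. Between 72 h and 36 h, 0 were higher at 72 h (4.05% of all genes were lower and 1.49% higher), and between 72 h and 24 h, 2 lower and 0 higher (3.99% and 2.86%). From 12 to 24 h, 5 were lower (Acat2, Cyp51, Fdps, Idi1 and Tm7sf2, 0.499% of all genes), and from 24 to 36 h Idi1 alone was higher (1.1% of all genes were higher and 1.27% lower). Between 12 and 36 h none of the 29 passed (smallest adjusted p = 0.262, for Nsdhl), where 0.991% of all genes were higher and 0.468% lower at 36 h. The differences, 36 h minus 12 h, ran from -0.51 (Tm7sf2) to 0.34 (Srebf2), with Insig1 at -0.01 and Hmgcs1 at 0.04, and for 10 genes every 12 h library was above every 36 h one (10.2% of all genes).

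Insig1, the sterol-sensing brake on SREBP release, was lower at 72 h than at each earlier time. Its 12 h control libraries held 66.8, 68.9 and 68.3 TPM, its 24 h ones 54.4, 39.4 and 51.0 TPM and its 36 h ones 72.0, 62.3 and 68.0 TPM, while the 17 control libraries at 72 h ranged from 15.8 to 31.6 TPM with a median of 27.0 TPM. Every early control library was above every 72 h one. The fall from 12 to 72 h was -1.38 ± 0.165 (SE) on the log2(TPM + 1) scale (adjusted p = 4.64e-08), and from 24 to 72 h -0.88 ± 0.165 (adjusted p = 0.000418). Cyp51, lanosterol demethylase, had 12 h levels of 67.0, 67.7 and 69.1 TPM, 24 h levels of 38.0, 37.2 and 40.6 TPM, 36 h levels of 52.4, 54.0 and 50.5 TPM, and 72 h levels from 25.8 to 41.2 TPM (median 31.3). The 24 h libraries lay within the 72 h range and the 12 and 36 h libraries above it.

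Enzymes of different steps were also lower at 72 h than at 12 h. Hmgcs1, which makes HMG-CoA, averaged 52.2 ± 1.09 TPM (SD, n = 3) at 12 h, 39.5 ± 4.17 (n = 3) at 24 h, 53.6 ± 2.63 (n = 3) at 36 h and 32.3 ± 4.71 (n = 17) at 72 h. Sqle, squalene epoxidase, averaged 25.6 ± 2.56, 17.1 ± 2.15, 21.6 ± 1.33 and 12.4 ± 2.82 TPM at the same times. Fasn, fatty acid synthase, averaged 22.4 ± 5.44, 14.3 ± 1.67, 17.6 ± 2.24 and 8.82 ± 2.92 TPM. For all 3 the 72 h groups were the lowest, and the difference from 12 h was called: Hmgcs1 -0.69 (adjusted p = 0.000217), Sqle -1.02 (adjusted p = 5.33e-05) and Fasn -1.28 (adjusted p = 0.000307). Srebf1 had another order, with 31.03 ± 4.17, 36.05 ± 3.81, 29.5 ± 3.45 and 19.6 ± 7.03 TPM, and was called lower at 72 h than at 24 h (-0.92, adjusted p = 0.00435). Srebf2 (33.2 to 43.3 TPM on average) and Insig2 (53.0 to 55.3 TPM), a second INSIG gene, were not called over time (adjusted p = 0.397 and 0.97).

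**Figure D1:**
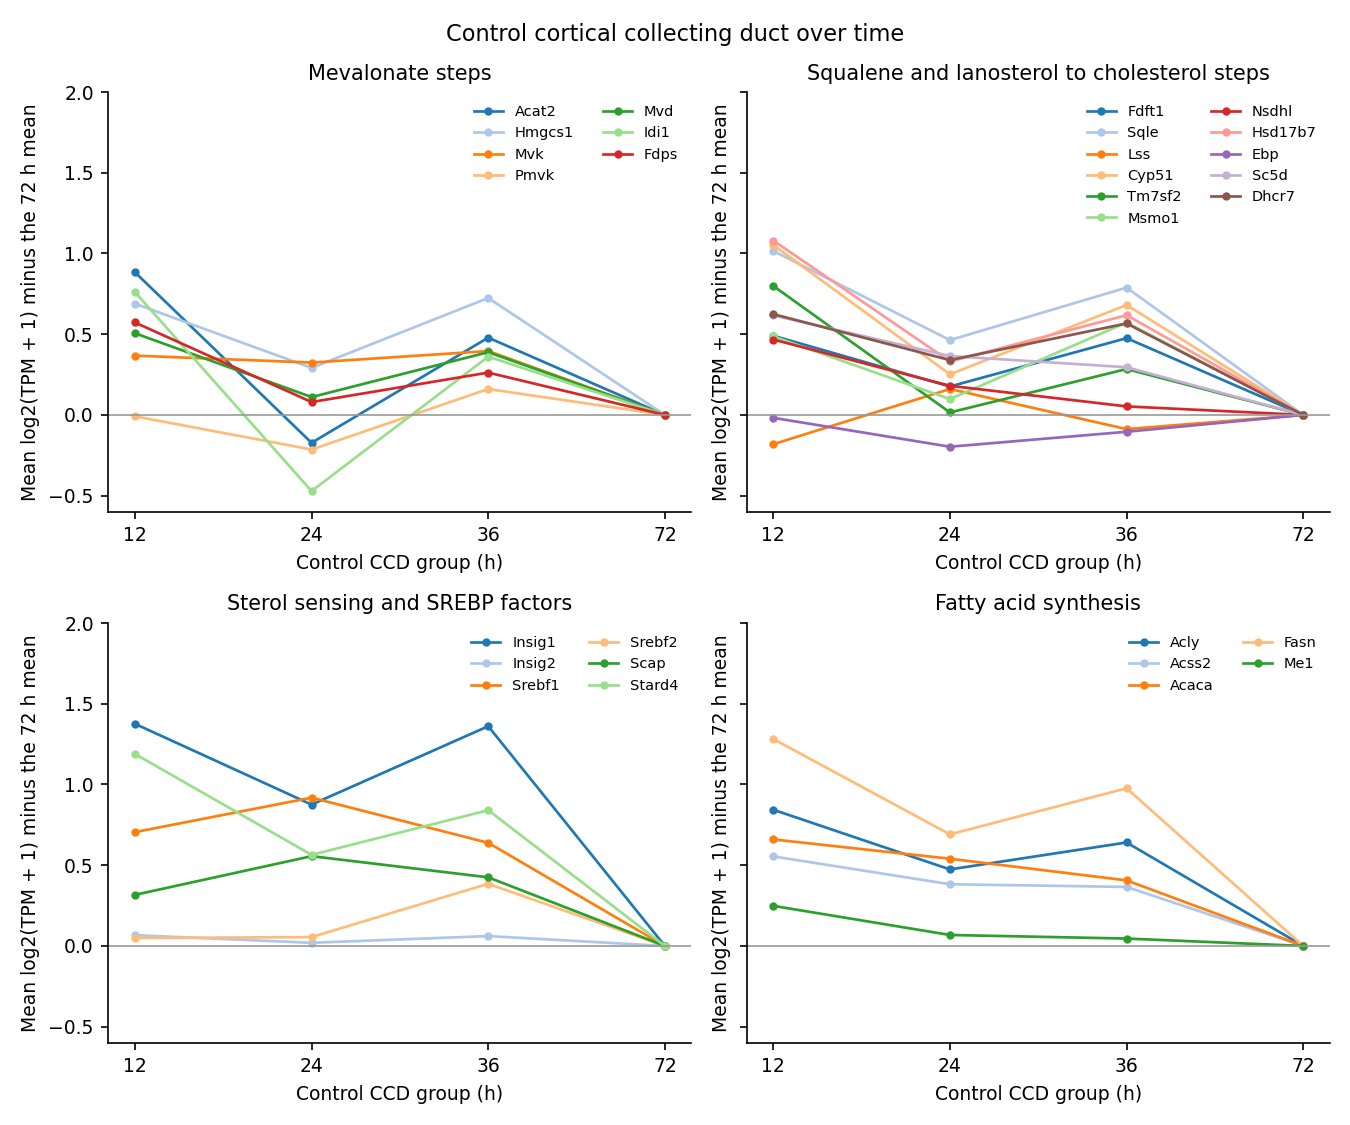
Mean log2(TPM + 1) of each gene in control CCD at 12, 24, 36 and 72 h (evenly spaced on the horizontal axis), minus its 72 h mean, 1 line per gene and 1 panel per step of the pathway. Most lines lie above 0 at 12 h and are lower at 24 h than at 12 h or 36 h. For Insig1 the 72 h mean differs from those at 12, 24 and 36 h by -1.38, -0.88 and -1.36.

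A single contrast, 12 and 36 h together minus 24 and 72 h together, called 13 of 29 higher and 0 lower, where 2.54% of all genes were called, 1.39% higher and 1.15% lower. Cyp51 had the smallest adjusted p (0.74 ± 0.0987, adjusted p = 1.21e-06). The largest differences were in Insig1 (0.93 ± 0.135, adjusted p = 8.56e-06), Idi1, which isomerises isopentenyl diphosphate (0.80 ± 0.141, adjusted p = 0.000258), Fasn (0.78 ± 0.197, adjusted p = 0.0146) and Acat2, the cytosolic acetoacetyl-CoA thiolase (0.77 ± 0.144, adjusted p = 0.000522). Hmgcs1 (0.56, adjusted p = 0.000465), Fdps (0.38, adjusted p = 0.00125) and Sqle (0.67, adjusted p = 0.00188) were called too, Fdps not under median-of-ratios scaling (0.33, adjusted p = 0.155), while Srebf1 (0.21), Srebf2 (0.19) and Insig2 (0.05) were not. By role, 4 of 7 mevalonate genes, 7 of 11 later sterol genes, Insig1 among the 6 sensing genes and Fasn among 5 fatty acid genes were called. Fasn lost its call without library 3 of the 12 h controls (0.70, adjusted p = 0.0772) or library 1 of the 36 h controls (0.74, adjusted p = 0.0586), Tm7sf2 without library 3 of the 36 h controls (0.45, adjusted p = 0.0672), Hsd17b7 without any of 4 libraries (0.64 to 0.66) and Dhcr7 without any of 8 libraries or control set 2 (0.39 to 0.47). Under that scaling 10 were higher, with Tm7sf2 (0.49, adjusted p = 0.0544) and Dhcr7 (0.38, adjusted p = 0.0723) also not called. Of all 12817 genes tested, 167 were then called higher and 183 lower. On set means 0 of 29 were called in this contrast (0.0078% of all genes) or over time (0.117%). Compared with the 4 control set means at 72 h, the 12 h mean was above all 4 for 23 of 29 genes (24.1% of all genes), the 24 h mean for 17 (25.4%) and the 36 h mean for 22 (28.7%).

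The time of day at which tubules were taken is not in the labels. Of 15 clock genes, 13 could be tested in the contrast of 12 and 36 h against 24 and 72 h: Npas2 was higher, Dbp, Per2 and Tef lower, and the others were not called. Set means called 0 of the 13. Dbp averaged 38.9, 43.9 and 28.5 TPM in the early controls and 119.7 TPM at 72 h. Proximal tubule markers summed to 412.3 to 1171 TPM in the 24 h controls and to 37.9 to 425.9 TPM in the other control CCD libraries. With lithium in CCD, 5 of 12 clock genes tested were called at 12 h (11.7% of all genes) and 4 of 12 at 24 h (25.7%). At 36 h, 11 of 13 were called (34.8%) and at 72 h 7 of 13 (37.3%). On set means 0, 0, 1 and 4 of them were called at these times. The part of clock phase or proximal tubule in the levels of the sterol genes, with or without lithium, was not tested. In bulk tubules, fewer cells of a type and less RNA per cell cannot be told apart.

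**Figure D2:**
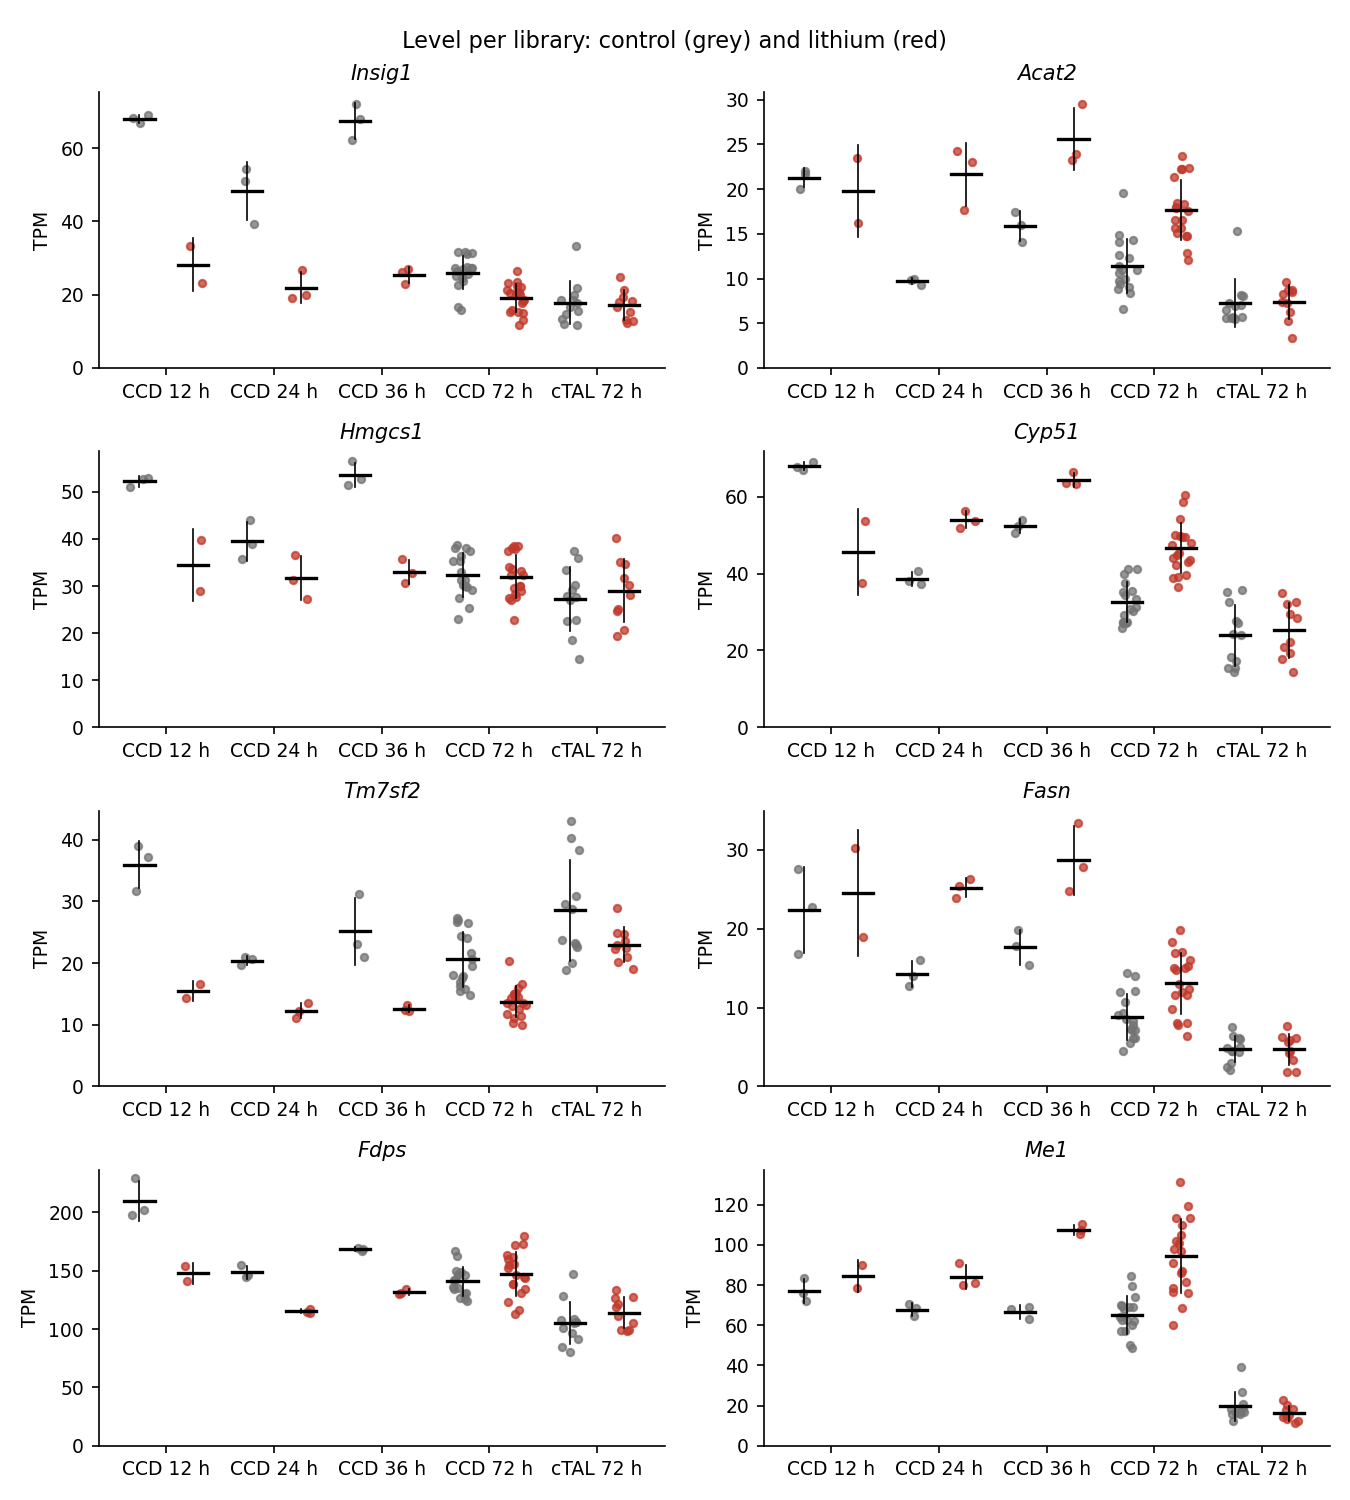
Level (TPM) of 8 genes in every library, control in grey and lithium in red; thick lines are group means and thin lines 1 SD. In the left column the early lithium groups sit below their controls, and for Insig1 and Hmgcs1 near the 72 h level (Insig1 at 72 h averages 26.0 TPM in control and 19.0 TPM in lithium CCD). In the right column the CCD lithium groups sit above their controls from 24 h on.

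At 12 h of lithium, 9 of the 29 genes were lower than in the matched controls and 0 higher by limma, where 3.78% of all genes were called lower and 7.96% higher, and the median over the members was -0.29 against 0.06 over all genes tested. The 9 were Hmgcs1, Idi1 and Fdps of the mevalonate steps, Fdft1, Cyp51, Tm7sf2, Msmo1 and Hsd17b7 of the later steps, and Insig1. By role they are 3 of 7 mevalonate genes, 5 of 11 later sterol genes and 1 of 6 sensing genes, while 0 of the 5 fatty acid genes tested were called. In 12 of 29 genes both lithium libraries were below all control libraries (11.3% of all genes), and in 0 above (23.2%). Insig1 was at 23.1 and 33.3 TPM in the lithium libraries against 66.8, 68.9 and 68.3 TPM in controls, with no overlap, a difference of -1.26 ± 0.164 (adjusted p = 9.13e-05). Tm7sf2, which reduces the sterol C14 double bond, was at 16.6 and 14.3 TPM against 37.2, 39.0 and 31.7 TPM, also without overlap (-1.17 ± 0.15, adjusted p = 8.19e-05). Hsd17b7 was at 2.46 and 2.65 TPM against 6.58, 5.81 and 7.06 TPM (-1.07 ± 0.194, adjusted p = 0.00157), Fdps at 154.3 and 141.2 TPM against 202.3, 229.2 and 198.1 TPM (-0.50 ± 0.0728, adjusted p = 0.000246) and Idi1 at 20.2 and 19.4 TPM against 36.9, 34.0 and 35.8 TPM (-0.82 ± 0.158, adjusted p = 0.00265). The 2 lithium libraries differed for Cyp51 (37.7 and 53.6 TPM against 67.0 to 69.1 TPM in controls, -0.59 ± 0.11, adjusted p = 0.00214). Without lithium library 1 the Cyp51 difference was -0.34, still called, while Hmgcs1 (-0.60 ± 0.137, adjusted p = 0.00822) and Msmo1 (-0.48 ± 0.107, adjusted p = 0.00745) lost their calls, at -0.38 (adjusted p = 0.114) and -0.32 (adjusted p = 0.1). Fdft1, squalene synthase, differed by -0.50 ± 0.0864 (adjusted p = 0.00107). Sqle (-0.29, adjusted p = 0.195), Srebf1 (-0.24, adjusted p = 0.419), Srebf2 (0.13, adjusted p = 0.737), Insig2 (0.09, adjusted p = 0.749) and Fasn (0.12, adjusted p = 0.776) were not called. On set means 0 of the 29 were called at 12 h (0.025% of all genes), with Insig1 at adjusted p = 0.252. At this time 3 of 9 principal cell markers were lower and 1 higher, their sum being 14270 to 16320 TPM against 18560 to 20540 TPM in controls, and 2 of 6 leukocyte markers were lower (sums of 45.16 to 110.7 against 137.7 to 246.4 TPM). Set means called 0 of these markers. Their part in the differences of the sterol genes was not tested.

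At 24 h genes of the pathway were called in both directions, in total at a share near that of all genes. Of the 29, 7 were called (25.7% of all genes), 4 higher (19.9%) and 3 lower (5.77%). Insig1 was again lower, at 26.7, 19.2 and 19.9 TPM against 54.4, 39.4 and 51.0 TPM (-1.10 ± 0.147, adjusted p = 2.97e-05), and so were Tm7sf2 (-0.69 ± 0.135, adjusted p = 0.00111) and Fdps (-0.36 ± 0.0656, adjusted p = 0.000601). Every lithium library was below every control library for these 3, Srebf1 and Hsd17b7, 5 of 29 genes (10.4% of all genes), and above for 6 (33.9%). Acat2 was higher, at 23.1, 24.2 and 17.6 TPM against 9.94, 9.33 and 9.87 TPM (1.07 ± 0.148, adjusted p = 4.49e-05). The 24 h controls were the lowest early controls for Acat2, and the lithium libraries overlapped the 12 h controls (20.1, 21.7 and 22.1 TPM). Cyp51, lower at 12 h, was higher at 24 h, at 53.8, 51.9 and 56.4 TPM against 38.0, 37.2 and 40.6 TPM (0.47 ± 0.0989, adjusted p = 0.00195). Fasn rose to 24.0, 25.4 and 26.3 TPM against 12.8, 14.0 and 16.1 TPM (0.78 ± 0.182, adjusted p = 0.00447). Me1, malic enzyme, which supplies NADPH for fatty acid synthesis, was higher by 0.30 ± 0.0811 (adjusted p = 0.0111), a call lost under median-of-ratios scaling (0.14, adjusted p = 0.157), without control library 2 (0.27, adjusted p = 0.0536) or lithium library 1 (0.24, adjusted p = 0.0591). Hmgcs1 (-0.31, adjusted p = 0.0715), Sqle (0.10), Srebf1 (-0.42, adjusted p = 0.0507), Srebf2 (-0.04) and Insig2 (0.07) were not called. Scaling by the median of ratios moved the median difference over all genes from 0.132 to -0.014, and under it 3 members were higher and 8 lower. Of all 11909 genes tested, 1565 were then called higher and 1430 lower. On set means 0 of the 29 were called (2.63% of all genes), with Acat2 at adjusted p = 0.0794 and Insig1 at 0.109. Lower too were 3 of the 7 proximal tubule markers tested (sums of 123.2 to 182.8 TPM against 412.3 to 1171 TPM in controls, 1 of them also on set means), 3 of 8 intercalated cell markers (8522 to 9032 against 10400 to 11810 TPM) and 3 of 9 principal cell markers, of which 1 was higher (16320 to 17920 against 17270 to 19920 TPM). Their part in the differences of the sterol genes was not tested.

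At 36 h, 11 of 29 were called (34.8% of all genes), in total a share near that of all genes. Of these, 4 were higher (25.5%) and 7 lower (9.28%), the 3 genes lower at 24 h among them. Insig1 was at 23.0, 26.9 and 26.3 TPM against 72.0, 62.3 and 68.0 TPM, its largest lithium difference (-1.38 ± 0.147, adjusted p = 1.47e-06), and it was the 1 member also called on set means at this time (adjusted p = 0.0251, with 5.66% of all genes called). Msmo1, sterol C4 methyl oxidase, was at 54.1, 51.4 and 53.8 TPM against 89.9, 94.5 and 94.6 TPM (-0.80 ± 0.096, adjusted p = 6.09e-06). Tm7sf2 (12.2, 12.4 and 13.2 TPM against 21.1, 23.1 and 31.3 TPM) differed by -0.92 ± 0.135 (adjusted p = 4.94e-05), and Hmgcs1 (30.6, 32.7 and 35.7 TPM against 52.7, 51.5 and 56.5 TPM) by -0.68 ± 0.123 (adjusted p = 0.000362). Fdps (-0.36 ± 0.0654, adjusted p = 0.000457), Fdft1 (-0.33 ± 0.0778, adjusted p = 0.00346) and Hsd17b7 (-0.56 ± 0.173, adjusted p = 0.0183) were also lower, Hsd17b7 not without control library 2 (-0.51, adjusted p = 0.0594) or lithium library 3 (-0.39, adjusted p = 0.112). Every lithium library was below every control library for 8 of 29 genes (14.4% of all genes), these 7 and Srebf2, and above for 6 (34.6%).

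Higher at 36 h were Me1, at 105.3, 110.2 and 107.3 TPM against 69.3, 62.8 and 68.2 TPM (0.68 ± 0.0809, adjusted p = 5.24e-06), Acat2, at 23.3, 29.6 and 23.9 TPM against 16.0, 14.1 and 17.5 TPM (0.65 ± 0.148, adjusted p = 0.00262), Fasn (0.67 ± 0.183, adjusted p = 0.00944) and Cyp51 (0.30 ± 0.0988, adjusted p = 0.0283). Fasn was at 0.55 without lithium library 2 (adjusted p = 0.054), and Cyp51 lost its call under median-of-ratios scaling (0.15, adjusted p = 0.148) and without any of 5 of the 6 libraries (0.27 to 0.31). Sqle (0.25, adjusted p = 0.138), Srebf1 (0.17, adjusted p = 0.426), Srebf2 (-0.22, adjusted p = 0.334) and Insig2 (-0.12, adjusted p = 0.515) were not called. Under median-of-ratios scaling the median over all genes moved from 0.134 to -0.006, and 3 members were higher and 8 lower. Of all 12069 genes tested, 2139 were then called higher and 2019 lower. All 9 principal cell markers were lower at this time, 5 of them also on set means, and their sum was 9079 to 10000 TPM against 18130 to 21740 TPM in controls. Of the intercalated cell markers 4 of 8 were lower, and of the endothelial ones 2 of 5. The part of these changes in the levels of the sterol genes was not tested.

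At 72 h, where both groups hold 4 sets, 11 of 29 were called (37.3% of all genes), 8 higher (22%) and 3 lower (15.2%), shares near those of all genes. The lithium group stood above the control group for several enzymes. From 12 to 72 h the controls were lower for Cyp51 (-1.05), Sqle (-1.02) and Acat2 (-0.88), while Me1 was not called (-0.25, adjusted p = 0.346 by limma). Between 24 and 72 h the controls of none of these were called. The part of the control levels in the lithium differences was not tested. Cyp51 ranged from 36.4 to 60.6 TPM (median 45.3) with lithium against 25.8 to 41.2 TPM (median 31.3), a difference of 0.51 ± 0.0712 (adjusted p = 2.36e-07). Me1 ranged from 60.1 to 131.4 TPM (median 97.1) against 48.7 to 84.6 TPM (median 63.85), or 0.51 ± 0.083 (adjusted p = 3.03e-06). Acat2 ranged from 12.1 to 23.7 TPM (median 17.6) against 6.64 to 19.6 TPM (median 10.9), or 0.61 ± 0.103 (adjusted p = 6.98e-06). Sqle ranged from 12.5 to 23.5 TPM (median 19.05) against 5.96 to 15.4 TPM (median 13.3), or 0.59 ± 0.101 (adjusted p = 1.04e-05). Libraries of the groups overlapped in each of these genes.

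Set by set, these genes did not overlap. The lithium set means of Acat2 were 15.6, 16.8, 21.6 and 18.1 TPM and the control set means 12.4, 9.78, 10.4 and 12.7 TPM. For Cyp51 they were 45.9, 43.4, 53.5 and 44.7 TPM against 36.4, 28, 32.7 and 33.2 TPM. Every lithium set was above every control set for Acat2, Cyp51, Sqle, Me1 and Dhcr7, 5 of 29 genes, as for 14.3% of all genes, and every lithium set below every control set for Tm7sf2, 1 of 29 (5.98%), when sets are averaged on the log2 scale. The same 5 were called higher on set means (15% of all genes were called): Cyp51 (0.52, adjusted p = 0.00868), Me1 (0.54, adjusted p = 0.00986), Acat2 (0.64, adjusted p = 0.0111), Sqle (0.58, adjusted p = 0.0168) and Dhcr7, the last reductase of cholesterol synthesis (0.40, adjusted p = 0.0379).

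Tm7sf2 and Insig1 stayed lower at 72 h. Tm7sf2 ranged from 9.89 to 20.4 TPM (median 13.5) against 14.8 to 27.3 TPM (median 19.5), or -0.54 ± 0.0929 (adjusted p = 9.33e-06, and 0.0555 on set means). Insig1 ranged from 11.8 to 26.4 TPM (median 20.01) against 15.8 to 31.6 TPM (median 27.0), or -0.44 ± 0.0955 (adjusted p = 0.000305, and 0.0916 on set means). Its lithium set means were 21.0, 14.9, 23.1 and 17.0 TPM and its control set means 21.6, 25.5, 28.7 and 27.9 TPM, which overlapped. Fasn was higher by 0.52 ± 0.14 (adjusted p = 0.00276, and 0.115 on set means), with lithium set means of 9.54, 13.8, 13.2 and 17.5 TPM against 7.08, 6.38, 12.2 and 9.47 TPM. Srebf1 was higher by 0.39 ± 0.125 (adjusted p = 0.0111, and 0.226 on set means). Its control set 3 averaged 30.2 TPM, above all 4 lithium sets, and the difference was 0.60 without that set, 0.27 without control set 1 (adjusted p = 0.0753) and 0.31 without control set 2 (adjusted p = 0.0797). Dhcr7 differed by 0.38 ± 0.0894 (adjusted p = 0.000707). Ebp, a sterol isomerase (0.21, adjusted p = 0.0288), and Fdft1 (-0.19, adjusted p = 0.0238) lost their calls without 6 and 4 of the 8 sets in turn, at 0.18 to 0.22 and -0.18 to -0.15, and Ebp also under median-of-ratios scaling (0.20, adjusted p = 0.113). Hmgcs1 (-0.01, adjusted p = 0.901), Srebf2 (-0.20, adjusted p = 0.101) and Insig2 (-0.12, adjusted p = 0.163) were not called. All 9 principal cell and all 8 intercalated cell markers were lower at 72 h (5 and 6 of them on set means), and so were all 5 endothelial ones. The first 2 lists had sums of 9509 to 13640 against 11740 to 18970 TPM and 6432 to 8561 against 8082 to 11690 TPM. Their part in the differences of the sterol genes was not tested.

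**Figure D3:**
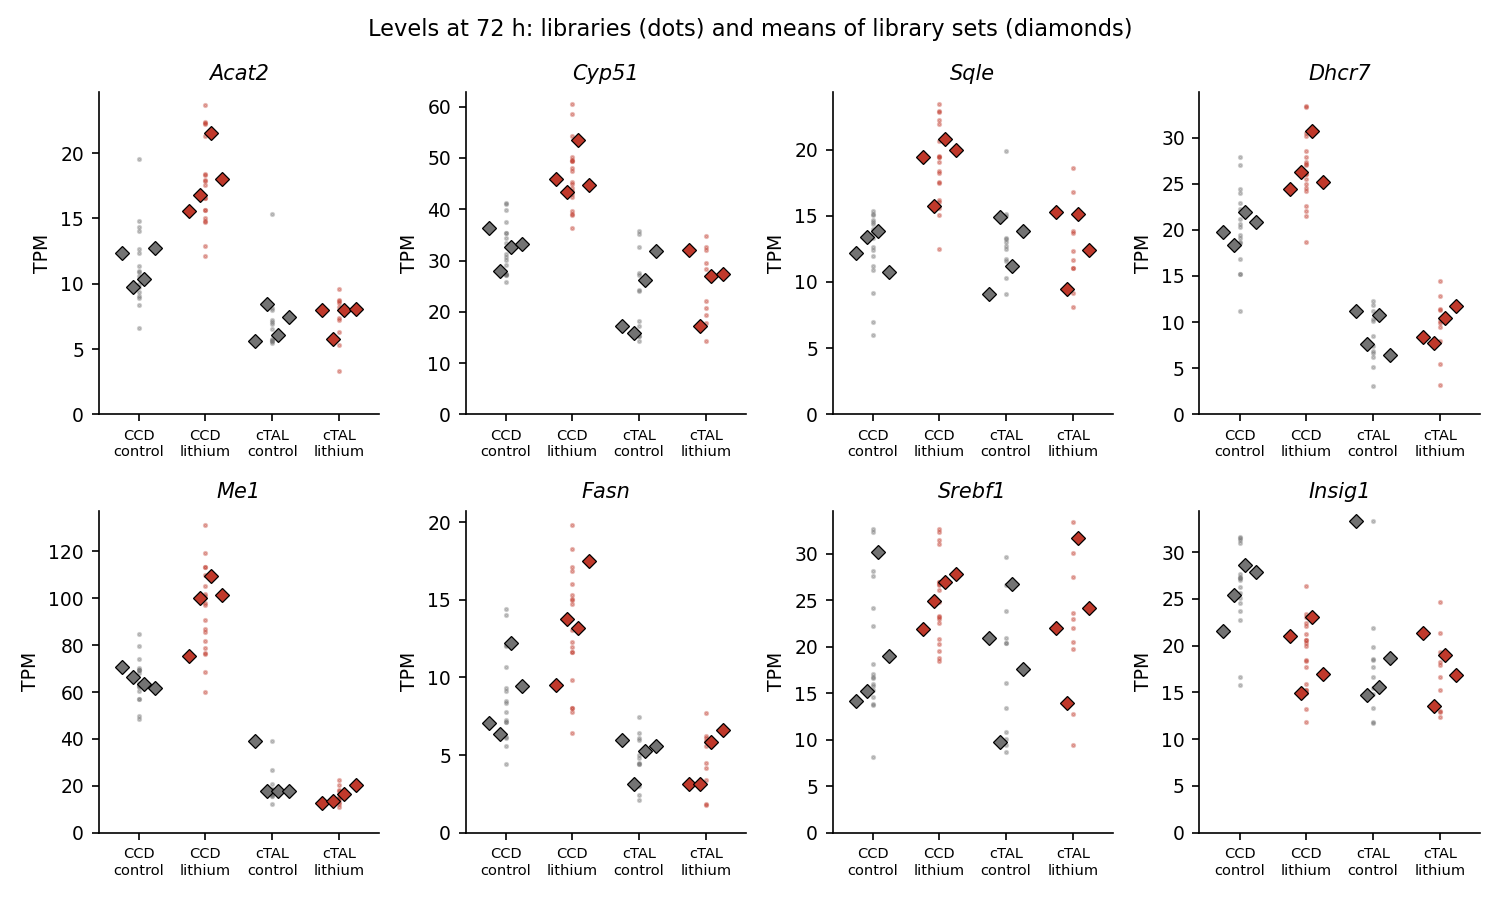
Level (TPM) of 8 genes at 72 h, with each library as a dot and the mean of each set of libraries as a diamond, control in grey and lithium in red. For Acat2, Cyp51, Sqle, Dhcr7 and Me1 all 4 lithium sets of the CCD lie above all 4 control sets, while in cTAL the sets of the groups interleave.

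In the thick ascending limb, limma called 0 of the 28 genes tested with lithium, with 1 at an unadjusted p under 0.05, where 0.701% of all genes were called. Hsd17b7 was too low there to be tested. Insig1 ranged from 12.4 to 24.7 TPM (median 17.3) with lithium and from 11.7 to 33.4 TPM (median 17.2) in controls, a difference of -0.03 ± 0.153 (adjusted p = 0.963). Other genes differed by -0.07 (Sqle, adjusted p = 0.88), 0.09 (Hmgcs1, adjusted p = 0.831), -0.03 (Fasn, adjusted p = 0.971), 0.35 (Srebf1, adjusted p = 0.524), -0.24 (Srebf2, adjusted p = 0.568) and -0.19 (Insig2, adjusted p = 0.498). Tested directly, the lithium effect was higher in CCD than in cTAL for 3 of 29 genes and lower for 0 (15.3% of all genes were called, 11.8% higher and 3.44% lower): Me1 (0.76 ± 0.161, adjusted p = 0.000315), Sqle (0.65 ± 0.165, adjusted p = 0.00309) and Acat2 (0.59 ± 0.183, adjusted p = 0.0191). The count was 6 without control set 1 or lithium set 3 and 5 without control set 3, and Acat2 lost its call without control set 2 (0.47, adjusted p = 0.092) or lithium set 2 (0.46, adjusted p = 0.12). On set means 0 were called (3.74% of all genes), with Me1 at 0.99 (adjusted p = 0.0784). Under median-of-ratios scaling 2 were higher and 2 lower, and Acat2 was at 0.49 (adjusted p = 0.0672). Of all 13083 genes tested, 1109 were then called higher and 857 lower. For Insig1 the segments' effects differed by -0.41 ± 0.171 (adjusted p = 0.0968), for Fasn by 0.55 (adjusted p = 0.127), and for Hmgcs1, Srebf1, Srebf2 and Insig2 by -0.11, 0.05, 0.05 and 0.07. That a gene was called in CCD and not in cTAL does not by itself show a difference.

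**Figure D4:**
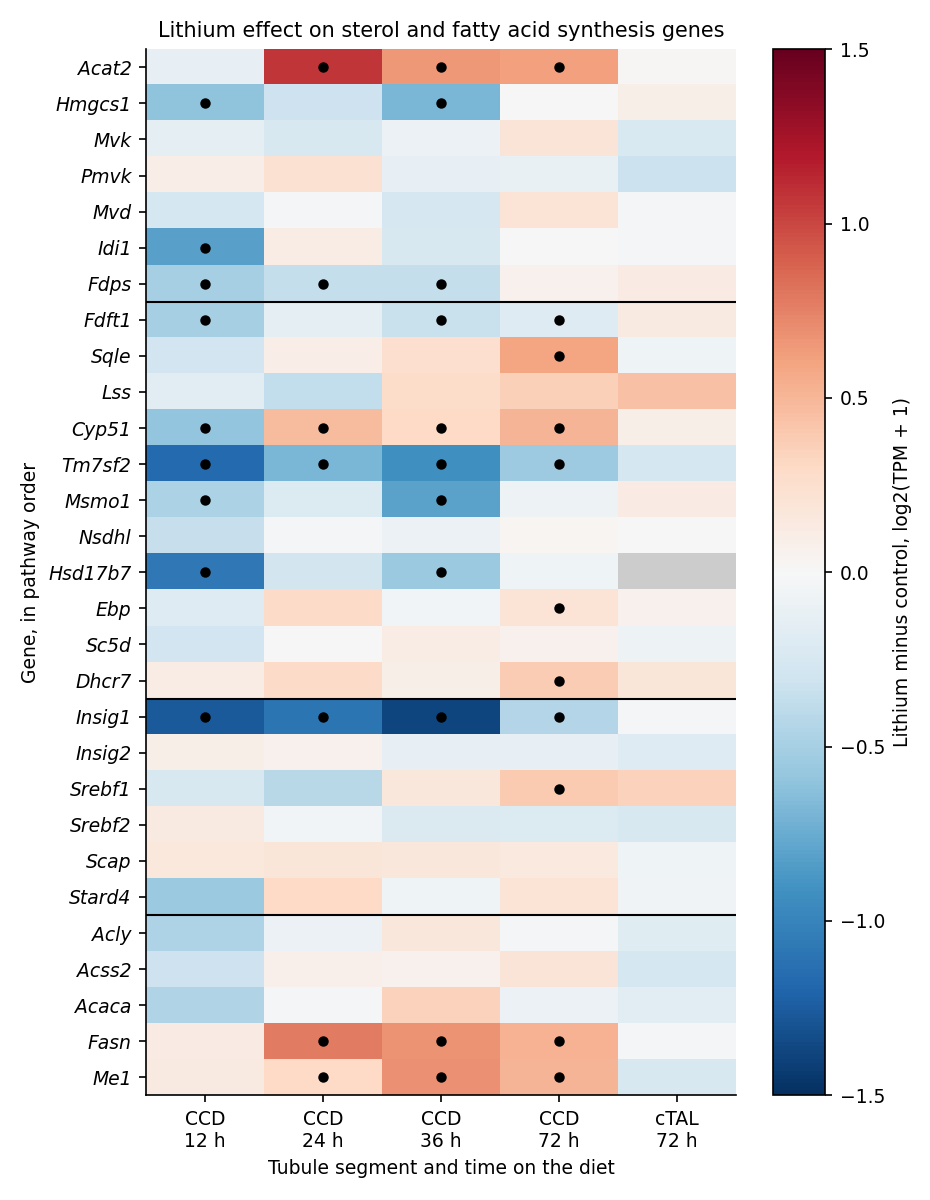
Lithium minus control difference in log2(TPM + 1) for the 29 genes tested (rows, in pathway order with lines between the 4 roles) in 5 comparisons (columns); dots mark genes called, and grey marks a gene not tested. Insig1 and Tm7sf2 are blue with a dot in every CCD column, Acat2, Fasn and Me1 red with a dot from 24 h on, and the cTAL column has no dot.

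The size of the lithium effect in CCD differed over the 4 times for 5 of 29 genes by an F test (8.43% of all genes). Cyp51 ran from -0.59 at 12 h to 0.51 at 72 h (range 1.09, adjusted p = 0.000366), Insig1 from -1.38 at 36 h to -0.44 at 72 h (range 0.94, adjusted p = 0.00179), Hmgcs1 from -0.68 at 36 h to -0.01 at 72 h (range 0.67, adjusted p = 0.00921), Msmo1 from -0.80 at 36 h to -0.08 at 72 h (range 0.72, adjusted p = 0.0346) and Fdps from -0.50 at 12 h to 0.06 at 72 h (range 0.56, adjusted p = 0.00153). Sqle (range 0.88, adjusted p = 0.0559), Srebf1 (0.82, adjusted p = 0.175), Fasn (0.66, adjusted p = 0.828), Srebf2 (0.36) and Insig2 (0.21) were not called. The count fell to 3 without library 1 of the 12 h lithium group, which took Cyp51 to 0.84 (adjusted p = 0.0577), and Msmo1 lost its call in 11 of the 25 fits that left out a library or a set (0.66 to 0.74). The count rose to 9 under median-of-ratios scaling (1207 of all 14105 genes tested) and was 0 on set means (0.121% of all genes). For Insig1, Hmgcs1, Msmo1 and Fdps the control means spanned a wider range over the 4 times than the lithium means. Whether the spans differ was not tested, and each early group was taken as 1 set. Mean Fdps ran from 141.0 to 209.9 TPM in controls and from 115.3 to 147.7 TPM with lithium. Mean Insig1 was 68.0, 48.2, 67.4 and 26.0 TPM in controls and 28.2, 21.9, 25.4 and 19.0 TPM with lithium. Mean Hmgcs1 was 52.2, 39.5, 53.6 and 32.3 TPM in controls and 34.4, 31.7, 33.0 and 32.0 TPM with lithium. Over the early lithium libraries Insig1 ranged from 19.2 to 33.3 TPM and Hmgcs1 from 27.2 to 39.8 TPM, against 15.8 to 31.6 TPM and 23.0 to 38.6 TPM in the 72 h controls.

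Among lithium CCD libraries, 1 of 29 genes at 12 h (Insig2), 2 at 24 h (Acaca and Fasn) and 4 at 36 h (Cyp51, Sqle, Acaca and Fasn) had every library above all 19 libraries at 72 h, against 2.71%, 7.0% and 9.41% of all genes. In controls the same counts against the 17 libraries at 72 h were 15 at 12 h, 1 at 24 h (Insig1) and 11 at 36 h, against 2.33%, 2.87% and 2.44% of all genes. Whether the groups of both diets differ in this was not tested.

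Comparing the segments in control rats at 72 h, 21 of 29 genes were called (68.4% of all genes), 18 higher in CCD (49.8%) and 3 higher in cTAL (18.6%). Median-of-ratios scaling moved the median over all genes from 0.277 to 0.021, and under it 10 were higher in CCD and 7 in cTAL. Of all 11925 genes tested, 3614 were then called higher in CCD and 3492 in cTAL. The largest differences were in 2 genes of fatty acid precursor supply, both called under either scaling. Me1 was at 48.7 to 84.6 TPM (median 63.85) in CCD and 12.4 to 39.2 TPM (median 17.45) in cTAL, without overlap, a difference of 1.73 ± 0.112 (adjusted p = 2.32e-21). Acss2, which activates acetate to acetyl-CoA, was at 12.4 to 23.9 TPM (median 16.5) in CCD and 20.6 to 62.7 TPM (median 45.8) in cTAL, or -1.39 ± 0.126 (adjusted p = 3.9e-15). Dhcr7 was at 11.2 to 27.9 TPM (median 20.3) against 3.08 to 12.3 TPM (median 7.98), or 1.24 ± 0.144 (adjusted p = 2.65e-11). Hsd17b7 (1.03 ± 0.147, adjusted p = 1.14e-08), Idi1 (0.91 ± 0.12, adjusted p = 1.2e-09) and Fdps (0.43 ± 0.0689, adjusted p = 1.82e-07) were also higher in CCD, Fdps not after scaling (0.15, adjusted p = 0.195), while Ebp (-0.44 ± 0.0834, adjusted p = 5.21e-06) and Tm7sf2 (-0.43 ± 0.108, adjusted p = 0.000403) were higher in cTAL. Insig1 (0.55, adjusted p = 4.77e-05), Fasn (0.78, adjusted p = 6.64e-05) and Srebf2 (0.46, adjusted p = 0.00112) were higher in CCD, Srebf2 not after scaling (0.19, adjusted p = 0.0816), and Insig2 (0.18), Srebf1 (0.18) and Sqle (-0.09) were not called. Hmgcs1 was at 0.27 (adjusted p = 0.0205), at 0.07 without control set 2, 0.23 without set 3 and 0.44 without set 4, and at -0.01 after scaling. On set means 16 of 29 were called (52.7% of all genes), among them Me1, Acss2, Dhcr7, Hsd17b7, Idi1, Fdps, Ebp and Tm7sf2, while Insig1 was not (0.38, adjusted p = 0.17).

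Related genes outside the 31 give the surroundings of the pathway: 85 were listed in 6 groups, of which 83 have a row. With lithium at 72 h in CCD, 11 of 21 other fatty acid synthesis, elongation and desaturation genes were called, 7 higher and 4 lower (37.3% of all genes were called, 22% higher and 15.2% lower), and 5 were called on set means (15%). Elovl5, an elongase of polyunsaturated fatty acids, was higher at every time, with means of 51.4, 72.6, 52.0 and 56.9 TPM in controls and 115.9, 113.8, 191.8 and 136.5 TPM with lithium, at differences of 1.16, 0.64, 1.87 and 1.28. It was called on set means at 36 and 72 h. Fads1, the delta-5 desaturase, was lower at 12, 36 and 72 h (-0.59, -1.26 and -0.76), called on set means at 36 and 72 h, with means of 192.1, 94.1, 179.3 and 115.6 TPM in controls and 129.2, 96.2, 74.6 and 67.7 TPM with lithium. Thrsp, a lipogenic regulator, was higher at 72 h by 1.43 ± 0.127 (adjusted p = 3.81e-12, and 0.00117 on set means). Scd2 was higher at 72 h by 2.05 ± 0.38 (adjusted p = 3.09e-05), but its control set means were 2.565, 3.768, 39.75 and 27.05 TPM, and it was not called on set means.

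Of the 9 other sterol synthesis genes, 2 were lower at 12 h (3.78% of all genes), 3 higher and 3 lower at 24 h (19.9% and 5.77%), 2 higher and 3 lower at 36 h (25.5% and 9.28%), and 2 higher and 4 lower at 72 h (22% and 15.2%). On set means 0, 0, 1 and 1 were called at these times. Lbr, whose product shares the C14 reductase activity of TM7SF2, went the other way from Tm7sf2 and was higher with lithium. Its means at 24, 36 and 72 h were 33.7, 43.1 and 21.8 TPM with lithium against 16.0, 15.6 and 14.7 TPM in controls. The differences were 1.03, 1.41 and 0.51, called on set means at 36 and 72 h. At 12 h it was not called.

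Scarb1, a receptor that takes up HDL cholesterol, had the largest difference among 15 genes of sterol uptake, storage and efflux at 24, 36 and 72 h (1.45, 0.99 and 1.00), called on set means at 24 and 72 h. limma called 0 of these 15 genes at 12 h (11.7% of all genes). At an unadjusted p under 0.05 there were 5, with no share of all genes to set beside them. Of the 15, 2 rose and 3 fell at 24 h, 4 rose at 36 h, and 1 rose while 4 fell at 72 h. These 5, 4 and 5 calls are shares near or below those of all genes (25.7%, 34.8% and 37.3% called at 24, 36 and 72 h), and on set means 1, 0 and 1 were called. Erlin1, an endoplasmic reticulum protein that limits SREBP activation, was higher at 24, 36 and 72 h (0.77, 1.33 and 0.45), among 10 SREBP processing genes with 2, 1 and 5 called at those times. Erlin1 was called on set means at 36 and 72 h, not at 24 h (adjusted p = 0.219). Of 11 genes of the isoprenoid branch, which draws on farnesyl diphosphate, 0, 2, 3 and 3 were called at 12, 24, 36 and 72 h, against 11.7%, 25.7%, 34.8% and 37.3% of all genes. Pdss1 was called at 24, 36 and 72 h (0.55, 0.85 and 0.58), on set means at 72 h only. Of 13 acyl-CoA synthetase and glycerolipid genes, 4, 4, 6 and 7 were called at the same times (0, 0, 0 and 4 on set means), among them Dgat2 (-0.64, -0.75, -0.85 and -0.30 at 12, 24, 36 and 72 h), which makes triglycerides and was not called on set means at any time. In cTAL, Lpin3 was the only related gene called with lithium (-0.48, adjusted p = 0.0369). Between the segments in controls, Fads2 (4.82) and Fads1 (3.93) were far higher in CCD and Acacb (-4.25), the mitochondrial acetyl-CoA carboxylase, in cTAL.

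Because fat cells carry much fatty acid synthesis, their markers were read in the same libraries. Adipoq averaged 155.2 to 306.7 TPM in the CCD groups and at most 2.37 TPM in the cTAL groups. The other adipocyte markers were at or near 0: over all 75 libraries Plin1 reached at most 0.19 TPM, Plin4 0.08 TPM, Adrb3 0.2 TPM, Cfd 1.78 TPM, Retn 1.44 TPM, Lep 5.09 TPM and Cidec 5.96 TPM. Leukocyte markers summed to 8.92 to 947.1 TPM in CCD and to 1286 to 4313 TPM in cTAL at 72 h, and their part in the difference between segments was not tested.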

How the data were processed

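Poly-A RNA of microdissected tubules was amplified (SMARTer V4, 15 PCR cycles, Nextera XT from 1 ng), per the labels' protocols. The authors deposited one table of TPM values, with no counts, and the submitters' processing notes name STAR 2.5.2b, RSEM 1.2.31 and Rnor_6.0, with no counting or strand settings given in the sources used here. All 75 libraries were used, grouped by their labels.

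Differences were tested with limma 3.58.1 (R 4.3.3; moderated test with a mean-variance trend, two-sided) on log2(TPM + 1), which understates changes of low genes. Genes with at least 1 TPM in as many libraries as the smallest group compared were fitted, p-values were adjusted by Benjamini-Hochberg over all of them, and genes under 0.05 were called. The 6 early CCD groups shared a fit, as did the 4 groups at 72 h for segment comparisons and the 8 CCD groups for time. Differences are given ± SE. The method was tested on simulated data in which libraries varied independently and sets did not differ. That test cannot show how the calls behave where sets differ. Genes named are Srebf1, Srebf2, Insig1, Insig2, Hmgcs1, Sqle, Fasn and Scd throughout, the 6 called members of smallest adjusted p in each comparison, and up to 2 genes of each related list with the largest differences; a gene that this rule names is not reported here. Others named were chosen after their values were seen. The members, gene lists and library sets were chosen with earlier results of these data known. Alternatives were a pseudocount of 0.1, no filter, median-of-ratios scaling, set means, the replicate number as a block, and leaving out each library (groups of up to 3) or each 72 h set; promoter letters were searched in RefSeq sequences (GRCr8).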

Additional observations from a re-analysis of the deposited data

Results flagged for a closer look

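In 5 of 29 genes the lithium effect in CCD differed over the 4 times (8.43% of all genes were called). The ranges were 1.09 for Cyp51, 0.94 for Insig1, 0.72 for Msmo1, 0.67 for Hmgcs1 and 0.56 for Fdps on the log2(TPM + 1) scale. In 3 of 29 genes the effect differed between the segments at 72 h, by 0.76 for Me1, 0.65 for Sqle and 0.59 for Acat2 (15.3% of all genes were called). On set means 0 of the 29 were called in either comparison. In the cTAL lithium group at 72 h, Msmo1 of library 1 was 79.3 TPM against a group median of 45.4 TPM, and its gap to the next library was 0.481 of the group's range on the log2 scale, above the limit of 0.466 for 10 libraries. It was the 1 such case among 29 genes examined in that group, and about 1 in 20 would pass by chance.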

How the results depend on the processing

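The largest dependence was on what counts as a sample. On set means the members called were 0 at 12 h, 0 at 24 h, 1 at 36 h and 5 at 72 h of lithium in CCD. They were 0 in the comparison of the lithium effect between segments and 0 in controls over time. In the contrast of 12 and 36 h with 24 and 72 h they were 0, and in the lithium effect over time 0. All genes called on set means in these comparisons, in the same order, were 3, 313, 683, 1745, 489, 15, 1 and 17. On set means the early groups hold 1 value each and the 72 h groups 4, and the comparison between segments uses 72 h groups only. Why fewer members were called was not tested. Median-of-ratios scaling gave 11 members at 24 h (3 higher, 8 lower) and 9 in the lithium effect over time, and turned Hmgcs1 between the segments to -0.01, and the cause was not tested. Over all genes it changed the calls from 957 higher and 454 lower to 814 and 703 at 12 h, from 2372 and 687 to 1565 and 1430 at 24 h, from 3078 and 1120 to 2139 and 2019 at 36 h, from 1550 and 450 to 1109 and 857 between the effects in the segments, and from 5937 and 2216 to 3614 and 3492 between the segments. Leaving out a library or a set in turn gave 7 to 12 members at 12 h, 6 to 8 at 24 h, 9 to 10 at 36 h, 8 to 11 at 72 h, 0 to 0 in cTAL, 3 to 6 between the effects in the segments, 16 to 22 between the segments, 15 to 23 in controls over time, 10 to 13 in the contrast and 3 to 7 in the lithium effect over time. A pseudocount of 0.1 and no filter moved no count of members by over 1.5 times.

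In no comparison did every pair of libraries with the same number correlate over 0.1 in deviations from the group means (for example -0.191 and 0.127 at 12 h). Over 0.1 were 5 of 17 pairs in CCD at 72 h and 3 of 10 in cTAL, where the highest was 0.374. Such a limit cannot exclude a pairing by replicate number. With the number as a block, members called were 10, 8, 11 and 10 at 12, 24, 36 and 72 h, 0 in cTAL, 2 between the effects in the segments, 20 between the segments, 21 in controls over time, 15 in the contrast and 6 in the lithium effect over time.

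Precision is limited by 2 or 3 libraries in each early group, taken as 1 set, and by the absence of counts, which leaves the depth behind a TPM value unknown. Acaca and Hsd17b7 are too low for small changes to be seen. Time of day, rat and preparation are not in the labels and cannot be told apart from the early groups.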
